A study of Homo sapiens with 21 samples.

Results

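Tazemetostat and CPI-1205, a pair of EZH2 inhibitors, were compared at the same dose in the same tumour model, with 3 libraries a side, chosen by the treatment in their labels. These 6 libraries are part of 21, in 7 groups of 3. All tumours were HT1376, a human bladder carcinoma cell line, implanted subcutaneously with Matrigel in female CB17 SCID mice aged 6 to 8 weeks, which lack T and B cells but keep other host cells. The tazemetostat group and the CPI-1205 group each received 75 mg/kg of compound by mouth daily, the vehicle group received vehicle, and tumours were collected on day 15, 1 hour after dosing. PF-06821497 and CPI-0209, 2 other inhibitors given in the same way, serve below only as points of reference. Whether every library stands for its own mouse is not in the labels. The p-values therefore reflect variation among libraries, and some of that variation may be technical.

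EZH2 and EZH1 are the catalytic subunits of polycomb repressive complex 2 (PRC2), which methylates lysine 27 of histone H3 and so keeps developmental regulators, germline genes and, in many carcinomas, antigen presentation and chemokine genes silent. EED reads the methyl mark and SUZ12 holds the complex together. Inhibitors of EZH2 lower the mark over days, and silenced target genes can then be transcribed.

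The 6 libraries held 21760406 to 25771778 counts over 32518 to 34450 detected genes. Levels are given in CPM, a gene's count scaled to a common library size. In the smallest of the 6, a count of 0 allows up to 0.138 CPM (3 counts), a limit for counting error only. Epithelial markers matched the label: all 11 were detected, with summed levels of 12500 to 14300 CPM in tazemetostat and 12400 to 13200 CPM in CPI-1205 libraries. CPI-1205 libraries 2 and 3 carry a resubmission mark in titles and count columns, and no tazemetostat library does, so that the mark and the compound cannot be told apart in those libraries. CPI-1205 library 1, without the mark, stood apart from libraries 2 and 3. Its log2 CPM correlated over genes, which are not replicates, at 0.980 with those of library 2 and 0.977 with those of library 3, which correlated at 0.988 with each other. The 3 tazemetostat libraries correlated at 0.990 to 0.992. With these, CPI-1205 library 1 correlated at 0.982 to 0.985, library 2 at 0.988 to 0.990 and library 3 at 0.979 to 0.985. Library 3 thus lay about as far from tazemetostat as library 1. Values without library 1 stand beside the main gene groups. A PF-06821497 library also carries the mark, but titles put it on library 1 and count columns on library 2.

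No gene passed the test between tazemetostat and CPI-1205. Of 21958 genes tested in edgeR's quasi-likelihood test, 0 were higher and 0 lower at an adjusted p under 0.05 (0%), and the smallest adjusted p was 0.264. At an unadjusted p under 0.05, 1191 genes (5.42%) were higher with tazemetostat and 1074 (4.89%) lower, a split that upper-quartile scaling turned to 837 higher and 1518 lower. The 3 libraries of each group did not overlap for 3711 genes (16.9%). limma-voom also called 0 genes, with 1334 higher and 1100 lower at an unadjusted p under 0.05, while DESeq2 called 9 higher and 0 lower, with 1228 and 976 at an unadjusted p under 0.05. The same fit called 528 genes (2.4%) between tazemetostat and PF-06821497 and 1053 (4.8%) between CPI-1205 and PF-06821497, each with 3 libraries a side. Tazemetostat against vehicle and CPI-1205 against vehicle gave 0 calls each (0%), with 491 higher and 156 lower for tazemetostat and 1326 higher and 1387 lower for CPI-1205 at an unadjusted p under 0.05. These 2 comparisons share the vehicle libraries, and log2 differences from vehicle are set side by side below for orientation only.

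A p above the threshold does not show that the compounds act alike, so the 95% interval of each log2 fold change (tazemetostat minus CPI-1205) was also read. Both bounds lay within 2-fold for 14995 genes (68.3%), and for 14171 of the 15875 genes (89.3%) with a mean of at least 1 CPM over the 6 libraries. The median standard error (SE) was 0.21 on the log2 scale.

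**Figure D1:**
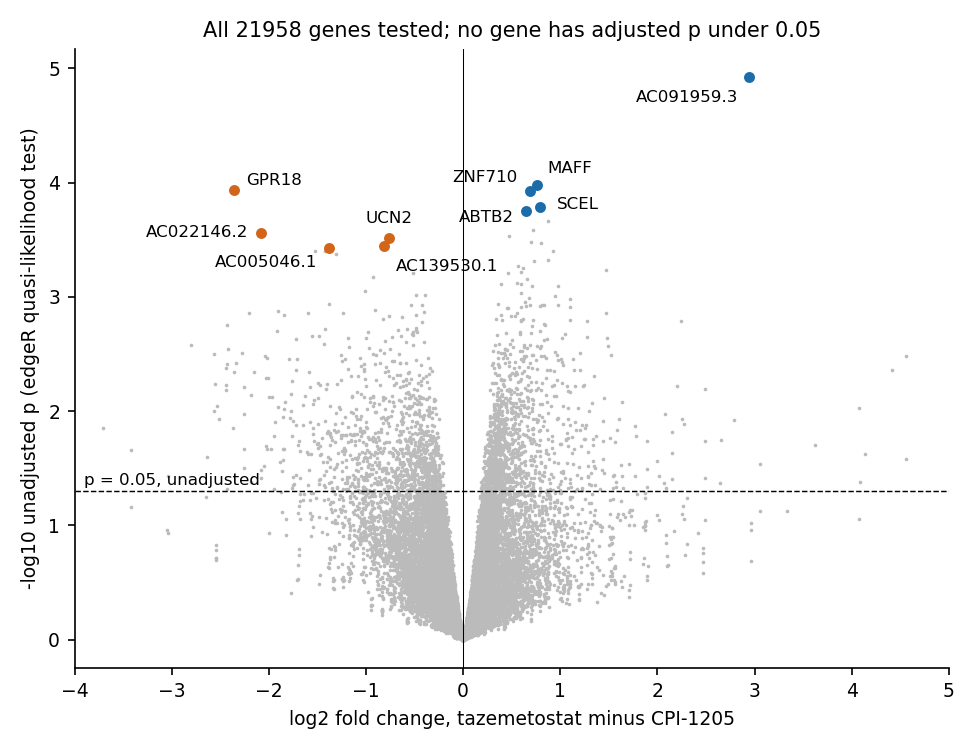
Each point is a tested gene, placed by its log2 fold change of tazemetostat minus CPI-1205 and by minus log10 of its unadjusted p, with the 5 smallest p in each direction labelled. The dashed line is the unadjusted p of 0.05, which 1191 genes pass on the right and 1074 on the left, and no gene has an adjusted p under 0.05.

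Among genes higher with tazemetostat, the smallest p belonged to AC091959.3, MAFF, ZNF710, SCEL and ABTB2. MAFF (ENSG00000185022, chr22:38200767-38216511, hg38, plus strand) encodes a small MAF transcription factor that pairs with stress-response partners. It stood at 134, 146 and 141 CPM in tazemetostat libraries 1 to 3 and at 68.4, 93.9 and 85.1 CPM in CPI-1205 libraries. The groups did not overlap, and the vehicle libraries, at 113 to 140 CPM, all lay above CPI-1205. The log2 fold change was 0.76 (SE 0.16, interval 0.43 to 1.10, adjusted p 0.409), from 0.16 for tazemetostat and -0.61 for CPI-1205 relative to vehicle.

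ZNF710, a zinc finger gene on chromosome 15 (chr15:90001392-90082206), was at 23.5, 23.2 and 23.2 CPM with tazemetostat and at 14.9, 15.7 and 12.8 CPM with CPI-1205. Its log2 fold change was 0.68 (SE 0.15), and the vehicle libraries again lay at the tazemetostat level, at 20.9 to 23.6 CPM. SCEL (chr13:77535674-77645263) encodes sciellin, a precursor of the cornified envelope of squamous epithelium. It was at 119, 112 and 104 CPM with tazemetostat against 70.3, 59.3 and 63.3 CPM with CPI-1205, and vehicle, at 59.7 to 94.3 CPM, overlapped with CPI-1205 and lay below tazemetostat. ABTB2 (chr11:34150988-34358008), which encodes an ankyrin repeat and BTB domain protein, was at 81.2 to 89.7 CPM with tazemetostat and 53.03 to 57.2 CPM with CPI-1205, with vehicle at 71.1 to 79.4 CPM. In all 4 genes every CPI-1205 library was below every tazemetostat library. They were named for their small p, which partly sets this, and groups did not overlap for 16.9% of all genes. The same choice applies to genes named from the lists below. AC091959.3, annotated as protein coding, had the smallest p of all, but its 3 CPI-1205 libraries, at 0.0448 to 0.0908 CPM, were each below the limit that 3 counts set. It was at 0.388 to 0.759 CPM with tazemetostat and 0.233 to 0.498 CPM with vehicle.

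The 5 smallest p among genes lower with tazemetostat belonged to GPR18, AC022146.2, UCN2, AC139530.1 and AC005046.1. UCN2 (chr3:48561727-48563773, minus strand) encodes urocortin 2, a peptide hormone of the corticotropin-releasing family. It was at 5.75, 7.57 and 8.37 CPM with tazemetostat and at 9.76, 12.3 and 14.6 CPM with CPI-1205, with vehicle at 7.08 to 7.83 CPM. The groups did not overlap, and the log2 fold change was -0.76 (SE 0.18, interval -1.12 to -0.39, adjusted p 0.409). GPR18, a G protein-coupled receptor gene, was at 0.160, 0.161 and 0.0432 CPM with tazemetostat and 0.772, 0.660 and 0.537 CPM with CPI-1205, so that its tazemetostat values rest on a few counts a library. The other 3 are antisense genes: AC139530.1 was at 3.68 to 3.88 CPM against 5.49 to 7.83 CPM, AC005046.1 at 0.805 to 1.12 CPM against 2.09 to 3.18 CPM, and AC022146.2 at 0.0805 to 0.216 CPM against 0.495 to 0.985 CPM. The strand setting of the counting is not given in the sources used here, so reads of an antisense gene and of its partner on the other strand may not be separated.

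The 9 genes that DESeq2 called were HSPH1, LAMA3, MAFF, SCEL, TP53BP2, ZNF710, ABTB2, CTR9 and PPL, with DESeq2 adjusted p from 0.031 to 0.0484, and all were higher with tazemetostat. LAMA3, TP53BP2, CTR9 and PPL fall outside the naming rule and were picked after their values were seen. LAMA3, the alpha chain of the basement membrane laminin 332, was at 507, 603 and 474 CPM with tazemetostat against 323, 323 and 319 CPM with CPI-1205, and at 447 to 517 CPM with vehicle. PPL encodes periplakin, a cornified envelope and desmosome protein, and was at 466, 465 and 521 CPM against 278, 341 and 272 CPM, with vehicle at 447 to 535 CPM. TP53BP2, which encodes a p53-binding regulator of apoptosis, was at 81.4, 94.3 and 75.3 CPM against 47.8, 48.5 and 40.4 CPM, with vehicle between them at 63.6 to 69.6 CPM. In edgeR their log2 fold changes were 0.71 for LAMA3, 0.70 for PPL, 0.88 for TP53BP2 and 0.34 for CTR9, a subunit of the PAF1 transcription elongation complex, at adjusted p of 0.409 each.

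**Figure D2:**
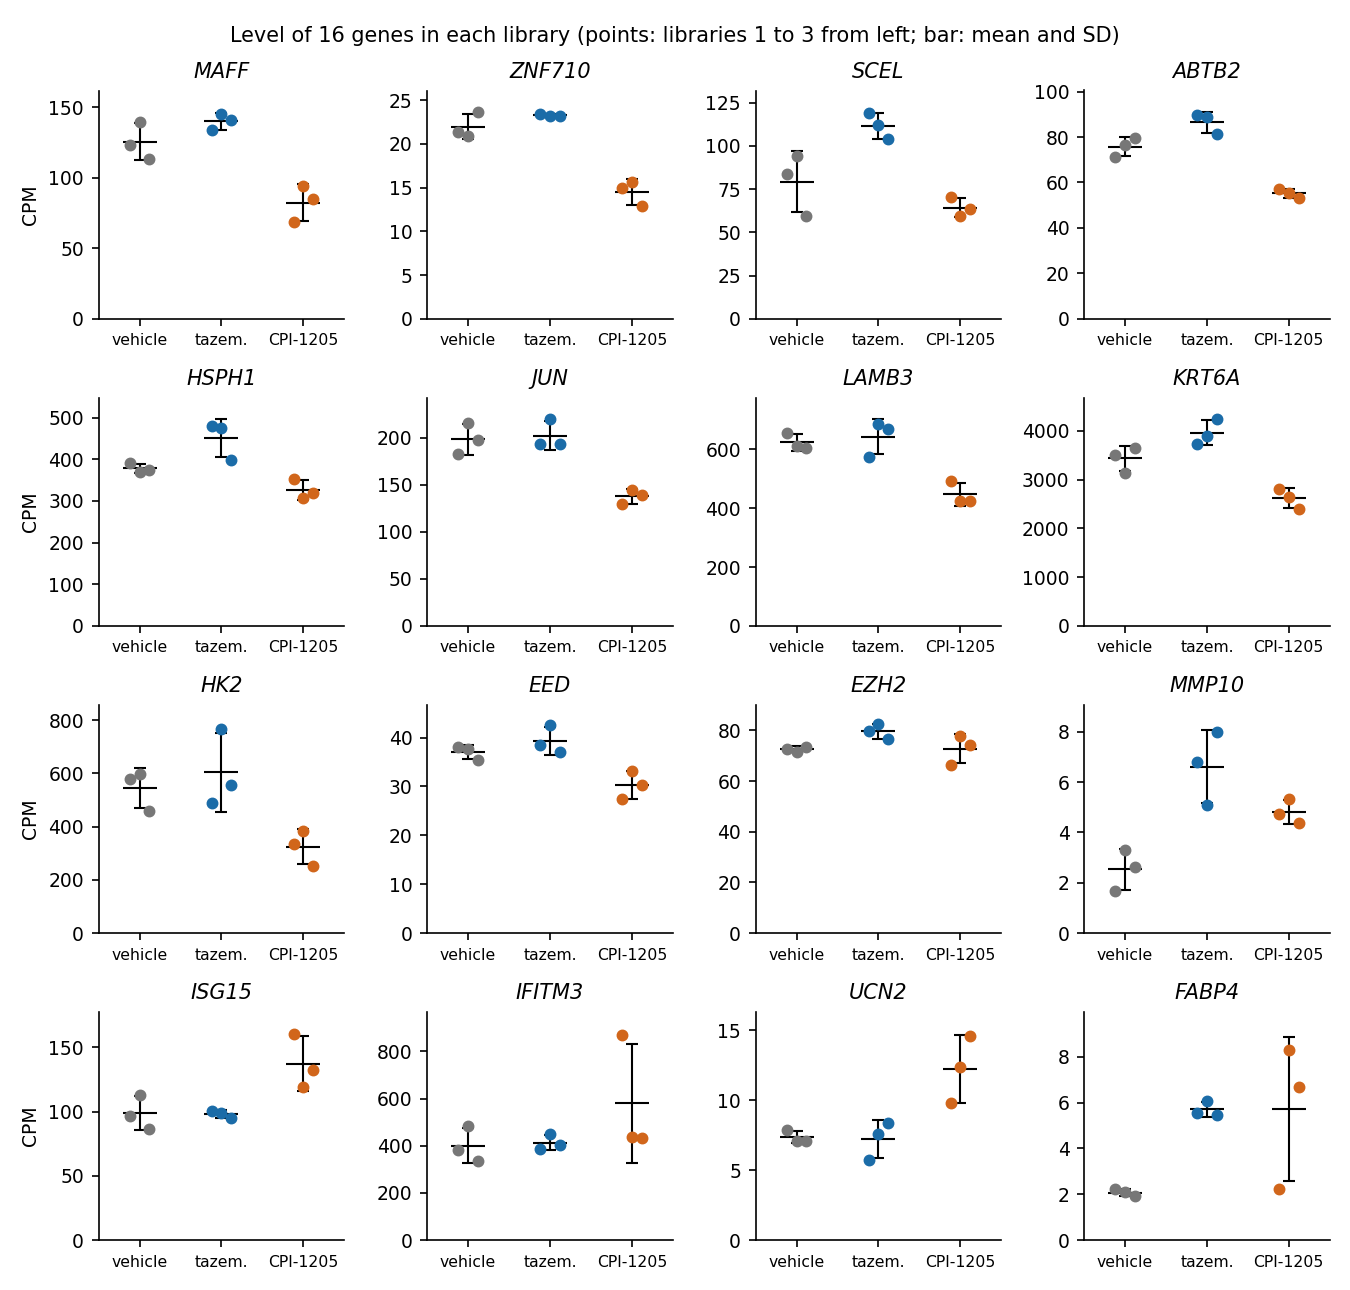
Level of 16 genes in CPM, on axes that start at 0, in the vehicle, tazemetostat and CPI-1205 libraries, with each point a library and bars for the mean and SD of 3. MAFF, ZNF710, JUN, LAMB3 and HK2 show tazemetostat near vehicle and CPI-1205 below both, while IFITM3 and FABP4 show CPI-1205 library 1 away from libraries 2 and 3.

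EZH2 and EZH1, the catalytic subunits, differed by small amounts. EZH2 was at 79.6, 82.6 and 76.5 CPM with tazemetostat and 66.4, 77.6 and 74.3 CPM with CPI-1205, groups that overlap, and its log2 fold change was 0.13 (SE 0.10, interval -0.08 to 0.34, adjusted p 0.646). EZH1 was at 46.2 to 53.5 CPM against 44.6 to 48.1 CPM, and its log2 fold change of 0.09 had an interval of -0.13 to 0.32. SUZ12 was at 46.0 to 56.8 CPM against 37.5 to 51.1 CPM, with a log2 fold change of 0.19 and an interval of -0.20 to 0.58. EED (chr11:86244544-86278813) was the PRC2 subunit with the smallest p. It stood at 38.5, 42.5 and 37.0 CPM with tazemetostat and 27.5, 33.3 and 30.3 CPM with CPI-1205, without overlap, and its log2 fold change was 0.37 (SE 0.13, interval 0.10 to 0.65, adjusted p 0.418). Vehicle EED lay at 35.4 to 38.1 CPM. JARID2, an accessory subunit that helps recruit PRC2, had a log2 fold change of 0.21 with overlapping groups.

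Over 15 PRC2 genes the median log2 fold change was 0.09, against 0.0028 over all genes tested, and all 15 intervals lay within 2-fold. Without CPI-1205 library 1 that median was 0.06, and without tazemetostat library 2 it was 0.04. The same held for all 24 genes of PRC1, the partner complex that binds the methyl mark and compacts chromatin, with a median of 0.08. RYBP, a subunit of variant PRC1, was at 85.1, 103 and 79.2 CPM with tazemetostat against 66.4, 70.8 and 58.6 CPM with CPI-1205. Of 12 genes for enzymes that remove the mark, acetylate the same lysine or methylate other lysines of histone H3, all 12 had a log2 fold change above 0 and an interval within 2-fold, with a median of 0.22. EP300, an acetylase of histone H3 lysine 27, was at 137, 147 and 111 CPM against 101, 96.0 and 82.8 CPM, and SETD2, the methylase of lysine 36, at 82.4 to 94.6 CPM against 64.3 to 79.3 CPM. With the trend on gene length removed, described below, the median over these 12 genes was 0.10. At an unadjusted p under 0.05, 2 of the 12 (16.7%) were higher, beside 5.42% of all genes. With each library left out 0 to 4 were higher, with 4 and a median of 0.18 without CPI-1205 library 1.

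Genes that respond to strong PRC2 inhibition were taken from CPI-0209 against vehicle, groups that hold none of the 6 libraries compared here. The adjusted p came from the same fit over all 21 libraries. The gene filter, the scaling and the shared spread within groups therefore also drew on those 6. In it, 2358 genes were at least 4-fold higher (log2 fold change of 2 or more) and 1046 at least 2-fold lower, at an adjusted p under 0.05. Of the 2358, 1413 were above 0 in tazemetostat minus CPI-1205, with a median of 0.14. At an unadjusted p under 0.05, 93 (3.94%) were higher and 39 (1.65%) lower, beside 5.42% and 4.89% of all genes tested. These shares are not like for like. Genes were kept by their counts over all groups, so some may have been kept for their level with CPI-0209. A mean of at least 1 CPM over the 6 libraries was reached by 504 of the 2358, beside 15875 of all 21958. The interval lay within 2-fold for 361 of the 2358, and for 263 of the 504 with a mean of at least 1 CPM over the 6 libraries.

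Per library, the median of these 2358 genes stood above the vehicle mean by 0.36, 0.47 and 0.17 on the log2 CPM scale in tazemetostat libraries 1 to 3, and by 0.38 and 0.25 in CPI-1205 libraries 1 and 2. CPI-1205 library 3 was at -0.0058. The 2 groups overlapped, and both lay below the PF-06821497 libraries, at 0.56 to 1.09. The choice of these genes used the vehicle libraries, so a level above vehicle is partly set by that choice, and no test was made of it. The genes lower with CPI-0209 were at -0.16, -0.10 and -0.19 with tazemetostat and at -0.14, -0.27 and -0.38 with CPI-1205. Their median in tazemetostat minus CPI-1205 was 0.08, with 99 (9.46%) higher and 33 (3.15%) lower at an unadjusted p under 0.05. The counts were 197 and 34 without CPI-1205 library 1, and 45 and 49 without CPI-1205 library 3. They were 29 and 77 with a term for the resubmission mark in the count columns, and 128 and 100 with a term for it in titles. These terms differ only in which PF-06821497 library is marked. Without tazemetostat library 1 or 2 the counts were 65 and 19 or 54 and 21. Against CPI-1205 library 1 alone they were 54 and 139, with a median of -0.04. For the genes higher with CPI-0209, the median was 0.27 without CPI-1205 library 1, -0.03 against library 1 alone, -0.02 with the level of skeletal muscle markers as a covariate, and -0.12 with the count-column term, which counted 29 higher and 65 lower. With the title term the median of these genes was 0.26, with 157 higher and 40 lower. Leaving out each library in turn gave 50 to 160 of them higher and medians from 0.01 to 0.27, the lowest median without CPI-1205 library 3.

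The 6 protein-coding response genes with the smallest p in CPI-0209 against vehicle were named after their values were seen. MMP10 (chr11:102770503-102780628), which encodes a secreted protease that degrades matrix proteins, was at 69.0 to 79.1 CPM with CPI-0209. It was at 6.79, 5.07 and 7.98 CPM with tazemetostat and 4.72, 5.32 and 4.39 CPM with CPI-1205, groups that overlap by 1 library, and at 1.68, 3.32 and 2.61 CPM with vehicle. Every library of both compounds was thus above every vehicle library, and far below those of CPI-0209. The choice of these 6 genes used the vehicle and CPI-0209 libraries, so both distances are partly set by it. Its log2 fold change between the compounds was 0.46 (SE 0.21, interval 0.02 to 0.89, adjusted p 0.466).

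GALNT14, an enzyme that starts O-linked glycans, was at 0.820 to 0.919 CPM with tazemetostat, 0.537 to 0.949 CPM with CPI-1205 and 27.7 to 50.6 CPM with CPI-0209. ALOX15B, a lipoxygenase, was at 8.98 to 11.0 CPM, 6.90 to 9.74 CPM and 65.6 to 99.4 CPM in the same order, and GDPD4 at 2.37 to 2.94 CPM, 2.01 to 2.54 CPM and 14.7 to 19.2 CPM. The cancer-testis genes PAGE1 and MAGEA10, which are normally limited to germ cells, were at 3.82 to 5.39 CPM and 8.98 to 9.55 CPM with tazemetostat and at 4.79 to 6.02 CPM and 7.68 to 10.9 CPM with CPI-1205. The tazemetostat and CPI-1205 groups overlapped in all 5 genes. With vehicle, PAGE1 was at 2.47 to 3.08 CPM, MAGEA10 at 6.43 to 7.22 CPM and GDPD4 at 0.978 to 1.51 CPM, below every library of both compounds. Vehicle GALNT14, at 0.407 to 0.713 CPM, and ALOX15B, at 5.03 to 7.29 CPM, overlapped with CPI-1205. The intervals for MAGEA10 (-0.32 to 0.25), PAGE1 (-0.62 to 0.23), ALOX15B (-0.12 to 0.73) and GDPD4 (-0.16 to 0.75) lay within 2-fold, while that of GALNT14 reached 1.10.

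HOX and other developmental transcription factors, classic PRC2 targets, had medians near that of all genes. Of 26 HOX genes tested, 1 was higher (3.85%) and 0 lower at an unadjusted p under 0.05, beside 5.42% and 4.89% of all genes, the median was 0.02, and 3 of 26 intervals lay within 2-fold. The higher gene, HOXC11, was at 0.0863 to 0.200 CPM with tazemetostat and at 0 to 0.0454 CPM with CPI-1205, so that its values rest on a few counts a library. Of 95 other developmental transcription factors, 4 (4.21%) were higher and 2 (2.11%) lower, with a median of 0.04 and 43 intervals within 2-fold. SOX9, a regulator of progenitor cells in many epithelia, was at 76.6, 65.9 and 72.2 CPM against 52.4, 58.6 and 52.3 CPM. GATA3, a luminal urothelial regulator, was at 134, 135 and 148 CPM with tazemetostat against 233, 148 and 163 CPM with CPI-1205, where library 1 was the highest.

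MHC class II genes, which load peptides for helper T cells, had a median of -0.00026 over 17 genes, with 1 higher (5.88%, beside 5.42% of all genes) and 0 lower at an unadjusted p under 0.05. Their median per library stood at 0.52, 0.47 and 0.35 above vehicle with tazemetostat and at 0.42, 0.90 and -0.48 with CPI-1205, a wider spread that holds both the highest and the lowest of the 6. The higher gene, HLA-DQB2, was listed at 0 in all 3 CPI-1205 libraries and at 0.0799 to 0.201 CPM with tazemetostat, a few counts a library. It has near-identical relatives with which reads may be shared. HLA-DPB1, the chain of a main class II molecule, was at 1.17 to 1.53 CPM with tazemetostat, 0.537 to 1.44 CPM with CPI-1205 and 0.559 to 1.26 CPM with vehicle. Class I genes had a median of -0.09 over 22 genes, all with intervals within 2-fold. HLA-G, a class I gene with close paralogs, was at 426, 423 and 441 CPM against 331, 258 and 265 CPM, without overlap, and vehicle at 295 to 300.4 CPM lay with CPI-1205. Its log2 fold change was 0.60 (SE 0.19, adjusted p 0.413).

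Cytokine and chemokine genes had a median of 0.13 over 51 genes, with 2 higher (3.92%, beside 5.42% of all genes) and 0 lower at an unadjusted p under 0.05 and 20 intervals within 2-fold. CXCL8, the neutrophil attractant, was at 11.1, 13.2 and 6.56 CPM with tazemetostat and 5.04, 4.99 and 7.88 CPM with CPI-1205, with overlap. LIF, an IL6-family cytokine, was at 8.79, 5.56 and 6.99 CPM against 3.27, 5.32 and 5.55 CPM. FABP4, which encodes a fatty acid carrier and is also a marker of adipocytes, was at 5.55, 6.08 and 5.48 CPM with tazemetostat. In CPI-1205 libraries it was at 2.23, 8.29 and 6.67 CPM, so that library 1 lay near the vehicle level of 1.91 to 2.22 CPM and the other 2 lay above every tazemetostat library. Its log2 fold change was -0.01 with an interval of -0.64 to 0.62.

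**Figure D3:**
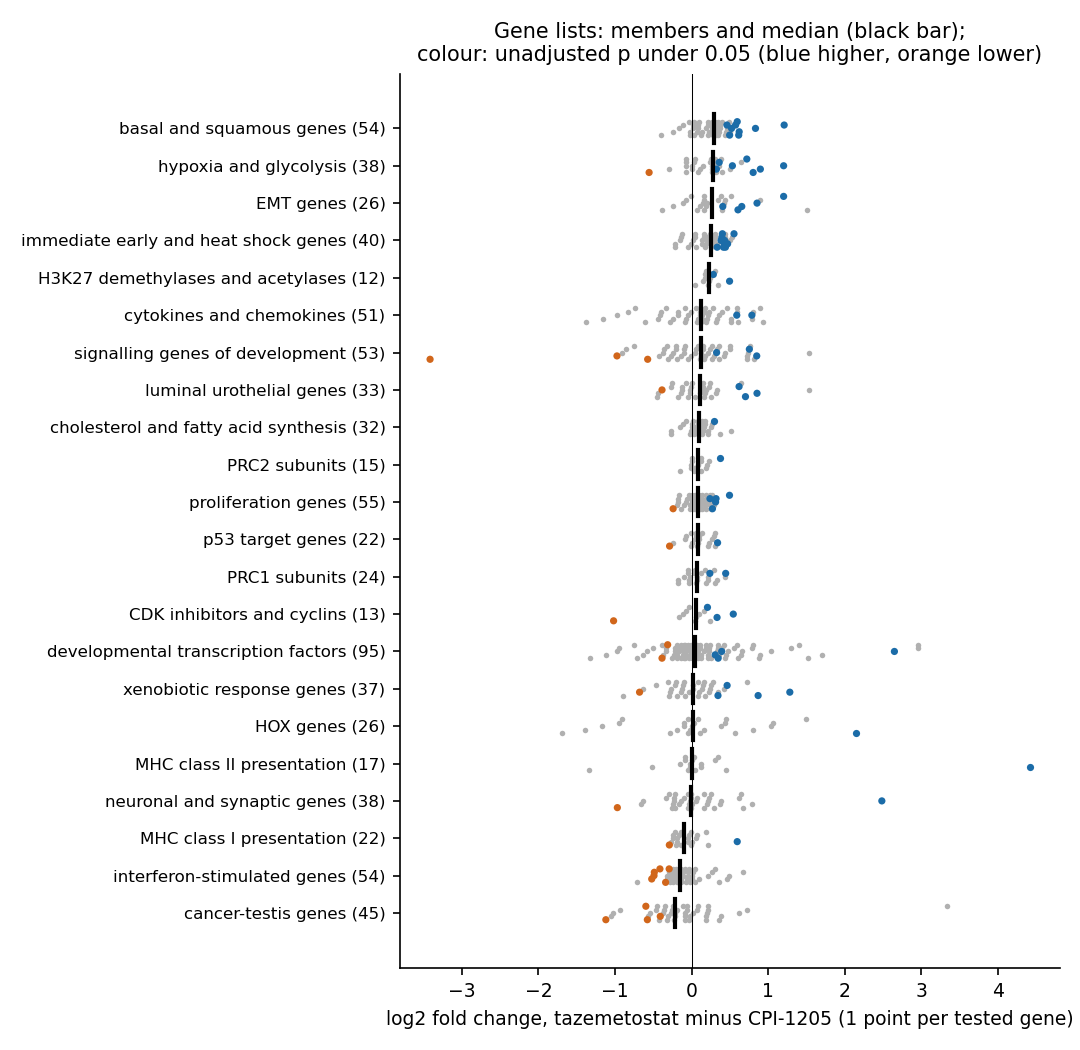
Log2 fold change of tazemetostat minus CPI-1205 for every tested member of 22 gene lists, 1 point per gene, with list sizes in parentheses and a black bar at each median. Coloured points have an unadjusted p under 0.05, and medians run from -0.21 for cancer-testis genes to 0.29 for basal and squamous genes.

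Basal and squamous genes had the highest median of the 22 plotted lists, which leave out markers of other cell types, 0.29 over 54 genes, of which 47 were above 0. At an unadjusted p under 0.05, 9 (16.7%) were higher and 0 lower, beside 5.42% and 4.89% of all genes. LAMB3 encodes a chain of laminin 332, which anchors basal epithelial cells. It was at 574, 686 and 668 CPM with tazemetostat against 492, 424 and 425 CPM with CPI-1205, with vehicle at 604 to 656 CPM. Every CPI-1205 library lay below every tazemetostat and vehicle library.

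IVL encodes involucrin, a cornified envelope protein, and was at 147, 157 and 207 CPM with tazemetostat against 66.7, 94.7 and 124 CPM with CPI-1205. KRT6A, a keratin of activated squamous epithelium with near-identical paralogs, was at 3735, 3896 and 4240 CPM against 2810, 2641 and 2398 CPM. Log2 fold changes were 0.52 for LAMB3, 0.84 for IVL and 0.60 for KRT6A, at adjusted p of 0.409 to 0.418. The group as a whole rested on CPI-1205 libraries 2 and 3. Its median per library relative to vehicle was -0.05, 0.04 and 0.21 with tazemetostat and -0.02, -0.40 and -0.50 with CPI-1205. Without CPI-1205 library 1, 23 genes were higher and 1 lower with a median of 0.49, and against library 1 alone 4 were higher and 5 lower with a median of 0.0039. With a term for the mark in the count columns 1 was higher and 5 lower, with a median of -0.04. With the title term 10 were higher and 2 lower, with a median of 0.19.

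Immediate early and heat shock genes, which answer acute stress and growth signals, had the largest share of higher genes among the same 22 lists at an unadjusted p under 0.05. Of 40, 10 (25%, beside 5.42% of all genes) were higher and 0 lower, with a median of 0.25, 33 above 0 and 38 intervals within 2-fold. HSPH1, a chaperone of the HSP110 family, was at 480, 476 and 399 CPM with tazemetostat against 352, 307 and 319 CPM with CPI-1205, and vehicle at 371 to 391 CPM lay between. JUN, a core AP-1 subunit, was at 193, 220 and 193 CPM against 129, 144 and 139 CPM, with vehicle at 182 to 215 CPM. FOSL2, its FOS-family partner, was at 379, 404 and 382 CPM against 288, 344 and 241 CPM. HSPA1A, an inducible HSP70 with a near-identical copy, was at 30.7, 30.9 and 32.5 CPM against 28.3, 21.0 and 21.9 CPM. These 4 genes were named for the smallest p in the list, so a lack of overlap is partly set by that choice. Groups did not overlap in these 4 genes, in 13 of the 40 members and in 16.9% of all genes. Log2 fold changes of the 4 were 0.40 to 0.55. Without CPI-1205 library 1, 18 of 40 were higher and 0 lower, against library 1 alone 4 were higher and 4 lower, and with the count-column term 1 was higher and 1 lower. Leaving out another library gave 4 to 9 higher, the fewest without CPI-1205 library 3, and upper-quartile scaling gave 4 higher. With the title term 7 were higher and 3 lower, with a median of 0.23.

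Hypoxia and glycolysis genes had a median of 0.28 over 38 genes, with 7 (18.4%, beside 5.42% of all genes) higher and 1 lower. HK2, the first enzyme of glycolysis, was at 487, 768 and 554 CPM with tazemetostat and 336, 383 and 252 CPM with CPI-1205, without overlap, and at 458 to 596 CPM with vehicle. VEGFA, the angiogenic growth factor, was at 1012, 1109 and 1004 CPM against 763, 774 and 957 CPM. KDM3A, a hypoxia-induced histone demethylase, was at 95.3 to 127 CPM against 60.2 to 87.9 CPM. Per library the list stood at -0.08, 0.09 and 0.0044 relative to vehicle with tazemetostat and at 0.03, -0.25 and -0.53 with CPI-1205. Without CPI-1205 library 1, 18 genes were higher and 0 lower, and without CPI-1205 library 3 or tazemetostat library 2, 3 were higher. Against library 1 alone the median was 0.00052. With the count-column term 0 were higher and 1 lower, with a median of -0.02. With the title term 6 were higher and 0 lower, with a median of 0.15.

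**Figure D4:**
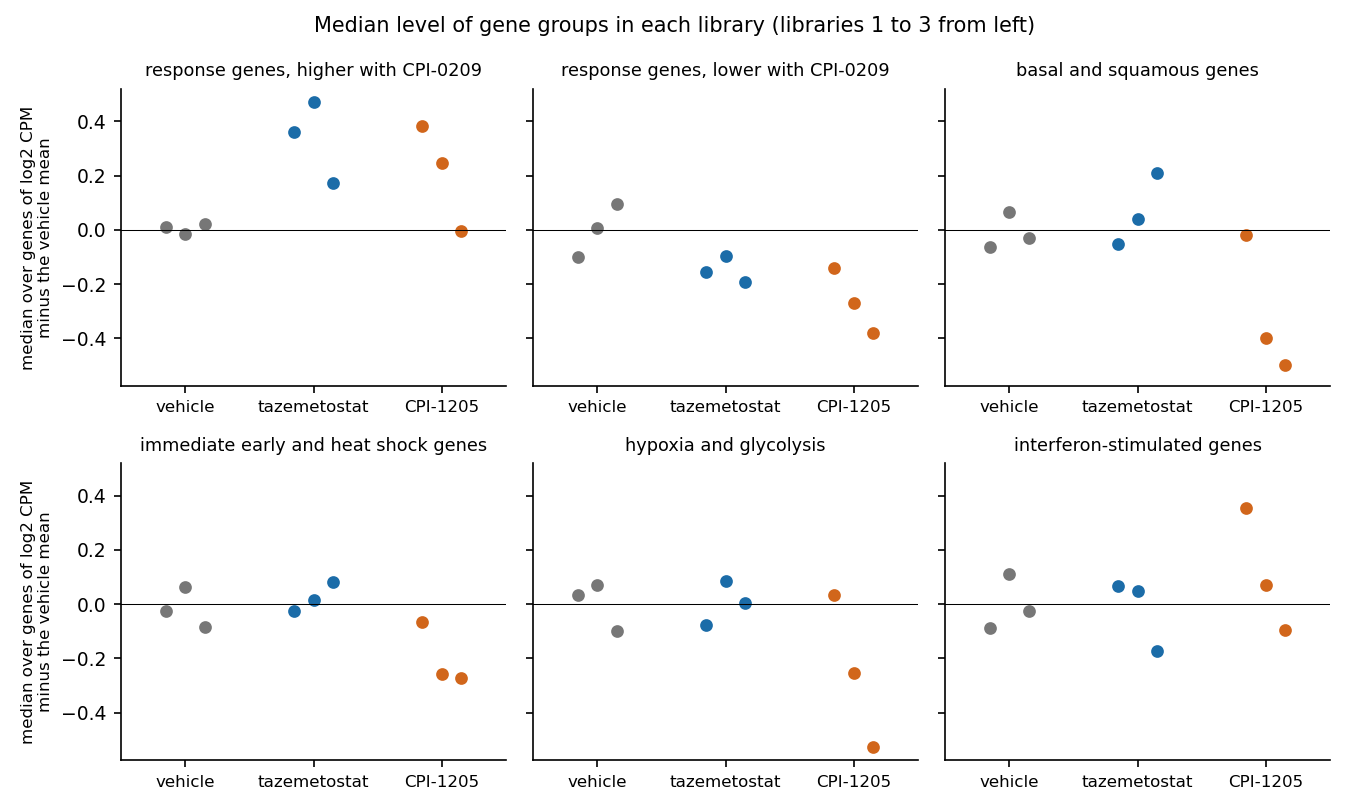
Median over the genes of 6 groups of log2 CPM minus the vehicle mean, with 1 point per library in the order 1 to 3. In basal and squamous, immediate early and hypoxia genes CPI-1205 library 1 stands near 0 and libraries 2 and 3 below it, from -0.25 to -0.53, while in interferon-stimulated genes CPI-1205 library 1 is the highest point at 0.36.

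Genes of the epithelial-mesenchymal transition had a median of 0.27 over 26 genes, with 5 (19.2%, beside 5.42% of all genes) higher and 0 lower. Leaving out CPI-1205 library 1 gave 6 higher and a median of 0.44. Without tazemetostat library 2 or CPI-1205 library 2, 2 were higher, without CPI-1205 library 3, 3 were higher, and against CPI-1205 library 1 alone 3 were higher, with a median of 0.19. The median was 0.09 with the muscle covariate, -0.0058 with the count-column term and 0.44 with the title term. Fibroblast and matrix markers, which share 4 genes with this list (COL5A1, POSTN, SPARC and VIM), had a median of 0.32, and their summed levels were 1750 to 1940 CPM with tazemetostat and 1370 to 1610 CPM with CPI-1205. Their part in this list was not tested. TNC encodes tenascin C, a matrix glycoprotein of wounds and tumours, and was at 90.7, 84.0 and 77.2 CPM with tazemetostat against 40.7, 66.3 and 52.7 CPM with CPI-1205. LOX, which cross-links collagen and stands in this list and in the hypoxia list, was at 3.32, 4.75 and 3.50 CPM against 1.86, 1.98 and 1.16 CPM. Both were without overlap, with log2 fold changes of 0.66 (SE 0.17) and 1.20 (SE 0.36).

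Interferon-stimulated genes lay the other way, with a median of -0.15 over 54 genes, and 0 higher and 6 (11.1%, beside 4.89% of all genes) lower at an unadjusted p under 0.05. ISG15, a ubiquitin-like antiviral protein, was at 101, 98.8 and 94.6 CPM with tazemetostat against 161, 119 and 132 CPM with CPI-1205. IFITM3, which blocks viral entry, was at 388, 448 and 402 CPM against 869, 436 and 433 CPM, so that library 1 alone was high and the other 2 overlapped with tazemetostat. IFI44L was at 133, 125 and 83.3 CPM against 218, 130 and 141 CPM, and DHX58, an RNA sensor, at 20.9 to 25.6 CPM against 26.7 to 30.5 CPM. Without tazemetostat library 3, 2 were lower. Without CPI-1205 library 1, 2 genes were higher and 0 lower with a median of 0.04, and against library 1 alone 0 were higher and 19 lower with a median of -0.37.

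Cancer-testis genes had a median of -0.21 over 45 genes, with 0 higher and 4 (8.89%, beside 4.89% of all genes) lower, and between 1 and 7 lower when each library was left out. XAGE2 was at 3.56, 4.87 and 4.88 CPM with tazemetostat against 7.36, 6.85 and 5.91 CPM with CPI-1205. SSX2 and GAGE1, which have near-identical copies on the X chromosome, were at 2.56 to 3.28 CPM against 3.47 to 4.63 CPM and at 3.91 to 4.32 CPM against 4.72 to 5.98 CPM. With the trend on gene length removed the median of this list was -0.08.

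Proliferation genes differed little in size: all 55 intervals lay within 2-fold, the median was 0.08, and 5 (9.09%, beside 5.42% of all genes) were higher and 1 lower, or 1 to 11 higher and 0 lower with each library left out, the fewest without CPI-1205 library 3. DLGAP5, a spindle protein, was at 65.5 to 72.2 CPM against 50.1 to 61.7 CPM, E2F8, a cell cycle repressor, at 29.1 to 36.2 CPM against 21.5 to 25.6 CPM, and CDC6, which licenses replication, at 39.8 to 42.8 CPM against 32.0 to 38.04 CPM. Of 13 CDK inhibitors and cyclins, 3 (23.1%) were higher and 1 (7.69%) lower, beside 5.42% and 4.89% of all genes. CDKN2B, a PRC2 target that inhibits CDK4 and CDK6, was at 98.8, 88.5 and 87.6 CPM with tazemetostat against 61.5, 76.6 and 80.0 CPM with CPI-1205. Vehicle CDKN2B, at 93.6 to 112 CPM, lay above every CPI-1205 library. The log2 difference from vehicle was -0.14 with tazemetostat and -0.47 with CPI-1205. CCND2, a D-type cyclin, was at 0.839, 0.362 and 0.734 CPM against 1.04, 1.36 and 1.52 CPM.

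Among 37 xenobiotic response genes the median was 0.02, with 4 (10.8%) higher and 1 (2.7%) lower, beside 5.42% and 4.89% of all genes. SRXN1, a sulfiredoxin under control of the oxidative stress factor NRF2, was at 24.8, 24.5 and 22.8 CPM with tazemetostat and 9.17, 18.03 and 12.2 CPM with CPI-1205, with vehicle at 20.1 to 25.3 CPM, and its log2 fold change was 0.87 (SE 0.21). Of 33 luminal urothelial genes 3 (9.09%) were higher and 1 (3.03%) lower, with a median of 0.11. OVOL1 and GRHL3 encode transcription factors of epithelial differentiation. OVOL1 was at 58.1 to 60.1 CPM against 26.5 to 46.0 CPM, and GRHL3 at 44.0 to 61.8 CPM against 27.9 to 41.4 CPM.

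Noncoding and short genes had lower medians than long protein-coding genes, with counts that varied with the setting. Of 15497 protein-coding genes, 1054 (6.8%) were higher and 494 (3.19%) lower with tazemetostat at an unadjusted p under 0.05, beside 5.42% and 4.89% of all genes. That split was 727 higher and 801 lower with upper-quartile scaling and 1436 and 559 without CPI-1205 library 1. It was 642 and 782 with the count-column term, and 2037 and 1229 with the title term. Of 1721 antisense genes 38 (2.21%) were higher and 160 (9.3%) lower. Of 1440 long intergenic noncoding genes, 28 (1.94%) were higher and 113 (7.85%) lower, and of 1182 processed pseudogenes 14 (1.18%) and 98 (8.29%). The shares over all genes were again 5.42% and 4.89%. For antisense genes the median was -0.19, or -0.23 without CPI-1205 library 1, -0.08 without CPI-1205 library 3 and -0.0034 with the count-column term, which counted 53 higher and 64 lower. With the title term it was -0.15, with 85 higher and 167 lower. Long intergenic noncoding genes took 1.07%, 0.969% and 1.16% of counts in tazemetostat libraries and 1.58%, 1.299% and 1.92% in CPI-1205 libraries, without overlap, and 0.909% to 1.15% with vehicle.

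Within protein-coding genes the median log2 fold change climbed with the exon length in the count tables. Split into 5 groups of about equal size, it was -0.08 in the shortest (207 to 2708 bases), -0.0040, 0.05 and 0.09 in the groups between, and 0.11 in the longest (7989 to 118976 bases). In the shortest group 97 genes (3.13%) were higher and 188 (6.06%) lower at an unadjusted p under 0.05. In the longest, 305 (9.84%) were higher and 47 (1.52%) lower, beside 5.42% and 4.89% of all genes tested. The shortest group had 203 higher and 185 lower without CPI-1205 library 1, with a median of -0.05, and the longest 326 and 59. In the longest group 129 to 434 genes were higher when each library was left out, the fewest without tazemetostat library 2. Relative to vehicle, the longest group was at 0.02, 0.04 and -0.11 in tazemetostat libraries and at -0.14, -0.05 and -0.16 in CPI-1205 libraries, so that tazemetostat library 3 lay among the CPI-1205 libraries. With this trend removed, counts in the longest group were 148 higher and 141 lower. The medians of basal and squamous (0.33) and immediate early genes (0.25) were then no lower than before. That of hypoxia and glycolysis genes fell from 0.28 to 0.21. The part of RNA quality or library preparation in the trend was not tested.

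**Figure D5:**
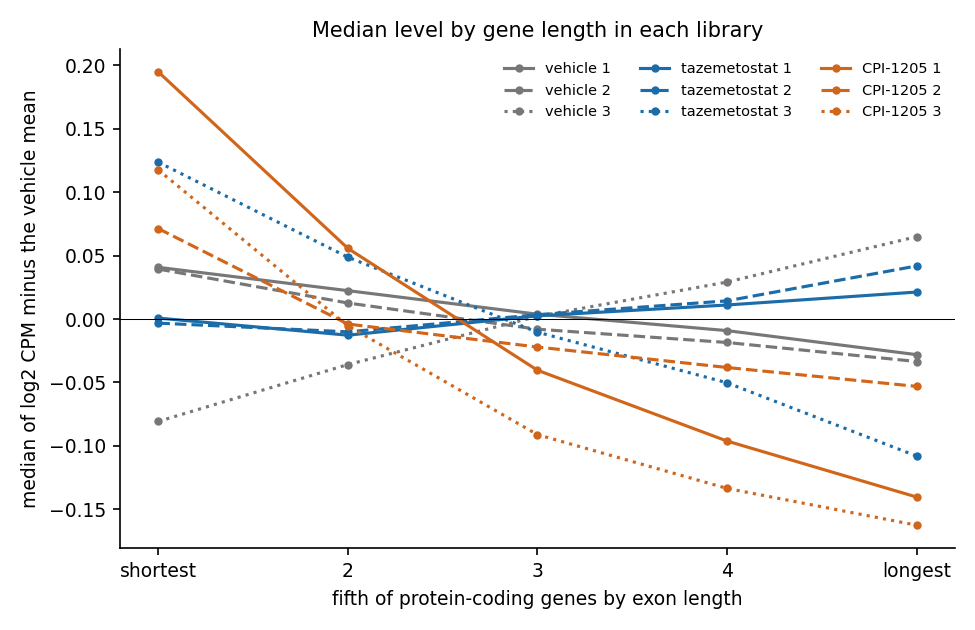
Median log2 CPM minus the vehicle mean in 5 groups of protein-coding genes by exon length, 1 line per library. CPI-1205 libraries slope down from 0.07 to 0.19 in the shortest to between -0.05 and -0.16 in the longest, and tazemetostat library 3 slopes down as well.

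Markers of other cells in the tumour differed between the groups in part. In bulk tissue, fewer cells of a type and less RNA per cell cannot be told apart, and the removal of mouse reads is not given in the sources used here. Skeletal muscle markers had a median log2 fold change of 1.42 over 15 genes, with 2 intervals within 2-fold. At an unadjusted p under 0.05, 0 were higher and 1 (6.67%, beside 4.89% of all genes) lower. Their median level relative to vehicle was -0.34, 1.89 and 0.10 in tazemetostat libraries and -0.64, 0.20 and -2.04 in CPI-1205 libraries, so that tazemetostat library 2 and CPI-1205 library 3 lay at the ends. Without tazemetostat library 2 the median was 0.04. None of the 16 markers was at 0 in all 6 libraries, and summed levels were 560 to 697 CPM and 631 to 819 CPM. TNNT3, at 358 to 418 CPM and 426 to 482 CPM, and TNNI2 made up most of these sums. Both stayed high in CPI-1205 library 3, where MYH1 was at 0.23 CPM and CKM at 0.138 CPM. The sums therefore do not follow the other muscle markers. TNNI2, a fast muscle troponin, was the lower gene, at 153, 156 and 181 CPM against 173, 240 and 296 CPM. With the muscle level as a covariate, 728 genes were higher and 583 lower at an unadjusted p under 0.05 and 0 passed at an adjusted p.

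The summed levels of fibroblast and matrix markers, 20 genes, did not overlap between the compounds and were 1420 to 2290 CPM with vehicle. COL1A2 made up most of these sums, at 969 to 1110 CPM with tazemetostat and 726 to 962 CPM with CPI-1205. PDGFRA, on the same list, was at 0.71 to 1.47 CPM and 0.668 to 1.06 CPM, with overlap. The sums therefore mostly follow COL1A2. The median log2 fold change of these 20 markers, 0.32, was 0.56 without CPI-1205 library 1, 0.18 without tazemetostat library 2 and 0.15 without CPI-1205 library 3. It was 0.13 with the muscle covariate, -0.0072 against library 1 alone, -0.11 with the count-column term and 0.52 with the title term. FBN1, the microfibril protein fibrillin 1, was at 218, 241 and 199 CPM against 129, 163 and 134 CPM. DCN, which encodes decorin and marks fibroblasts, was at 0.959, 1.53 and 1.12 CPM with tazemetostat and at 10.6, 0.908 and 0.492 CPM with CPI-1205, so that library 1 set its log2 fold change of -1.72, which was 0.77 without it. Skin keratinocyte and hair markers summed to 2980 to 4060 CPM and 2080 to 3370 CPM. KRT1, at 1800 to 2310 CPM and 1190 to 1960 CPM, and KRT10, at 977 to 1540 CPM and 727 to 1130 CPM, made up most of these sums. KRT2, on the same list, was at 0.204 to 0.349 CPM and 0.376 to 0.528 CPM. Whether tumour cells or skin gave these keratins was not tested. Macrophage and granulocyte markers (1650 to 1800 CPM and 1530 to 2030 CPM), endothelial markers (32.5 to 44.4 CPM and 24.4 to 45.3 CPM), and lymphocyte markers (3.35 to 3.76 CPM and 3.51 to 5.19 CPM) overlapped between the groups. S100A8 made up most of the macrophage and granulocyte sums, at 1500 to 1660 CPM with tazemetostat and 1410 to 1810 CPM with CPI-1205. PTPRC, on the same list, was at 0.158 to 0.245 CPM and 0.167 to 0.23 CPM, so that these sums mostly follow S100A8. ADIPOQ and KRT25 were at 0 in all 6 libraries. The part of these cells in the results above was not tested beyond the muscle covariate.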

How the data were processed

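RNA was sequenced as paired reads of 150 bases, per the labels, and the authors deposited raw counts per Ensembl gene. STAR 2.7.3a, RSEM 1.3.1 and hg38 appear in the submitters' processing notes. Which annotation release and counting program were used, with what strand setting, and whether mouse reads were removed is not given in the sources used here. Symbols came from GENCODE 29 (56898 of 57500 genes). Libraries were grouped by treatment label. Genes were kept by filterByExpr (21958, holding 99.6% to 99.9% of counts), scaled by TMM (0.946 to 1.08) and fitted over all 21 libraries with a term per group in edgeR 4.0.16 (R 4.3.3), robust quasi-likelihood test, two-sided, Benjamini-Hochberg adjusted p under 0.05. SE is the log2 fold change divided by the square root of F. CPM in sentences on genes use TMM; marker sums and shares use library totals. Log2 CPM per library used a prior count of 2.

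Named were EZH2, EZH1, EED and SUZ12, the 5 smallest p each way, from each list at most 4 members, by p, and, had any gene been called, the 15 largest differences each way. Members, lists and this rule were chosen with earlier results of these data known. The counts at an unadjusted p, response genes, gene types and length groups were added after values were seen. CpG content of promoters was to be described for called genes and, with none, was not computed. Alternatives were upper-quartile or RLE scaling, omitting the low-count filter or asking for 1 CPM in 3 libraries, DESeq2 1.42.0, limma-voom (limma 3.58.1), a test against a 1.5-fold change, the 2 groups alone, a replicate block, terms for the resubmission mark in titles or count columns, CPI-1205 without its marked libraries, a muscle covariate, thinning to the shallowest library, each library left out, and, chosen after seeing the data, removal of the trend on gene length. Results for some genes are not reported here. The scripts were tested on simulated data.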

Additional observations from a re-analysis of the deposited data

How the results depend on the processing

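The count of 0 calls in each direction held under 17 of 21 alternatives, each library left out included. With no low-count filter 250 genes were higher and 90 lower; with a term for the resubmission mark in titles 30 and 17, where the term from count columns, which differs only in the PF-06821497 library marked, gave 0 and 0; with CPI-1205 represented by its unmarked library 1 alone, assumed to vary like the other groups, 184 and 59; and DESeq2 called 9 higher. At an unadjusted p under 0.05, no filter gave 2009 higher, the title term 2346 higher and 1905 lower, library 1 alone 1784 lower, the muscle covariate 728 and 583, and the test against a 1.5-fold change 117 and 205. Leaving out 1 library gave 674 to 1658 higher and 580 to 1430 lower, with the fewest without tazemetostat library 2. The cause was not tested. Apart from library 1 alone, genes within 2-fold numbered 12283 to 20856. The lowest number came from 21958 genes tested with the title term, the highest from 48135 genes tested with no filter. The main fit had 14995 of 21958. Replicate numbers did not pair libraries (same-number correlations of deviations -0.145, 0.0945 and 0.0912, and not every library correlated best with its own number); with the number as a replicate block 0 genes passed, and 1101 were higher and 956 lower at an unadjusted p under 0.05. The sign of the log2 fold change turned for EZH1 with the count-column term (-0.041), FABP4 with the title term (0.53) and against library 1 alone (1.32), and MAGEA10 under the same 2 settings (0.19 and 0.23). With each library left out, DCN ran from -2.25 to 0.77, ESRRA from -0.067 to 0.55 and TAF15 from -0.30 to 0.44, the sign turning without CPI-1205 library 1, and FABP4 from -0.39 to 0.35, turning without CPI-1205 library 2. With no low-count filter 26 of 54 basal and squamous, 18 of 40 immediate early and 17 of 38 hypoxia genes were higher at an unadjusted p under 0.05.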

Other observations

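CPI-1205 library 1 differed from the other libraries in genes that the comparison as a whole did not call. ESRRA, which encodes an orphan nuclear receptor of mitochondrial metabolism, was at 40.1 CPM in that library, at 124 and 130 CPM in CPI-1205 libraries 2 and 3, at 115 to 129 CPM with tazemetostat and at 117 to 121 CPM with vehicle. TAF15, an RNA-binding protein of the FET family, was at 64.4 CPM in library 1 and at 210 and 249 CPM in libraries 2 and 3, with tazemetostat at 169 to 208 CPM. EHBP1L1 was at 84.9 CPM against 250 and 234 CPM, and ZGPAT, a zinc finger repressor, at 4.31 CPM against 18.7 and 21.1 CPM, with tazemetostat at 256 to 293 CPM and 17.95 to 21.9 CPM. These 4 genes were chosen after their values were seen, and with CPI-1205 represented by library 1 alone they were among the 184 genes called higher with tazemetostat. Log2 fold changes in that setting were 1.56 for ESRRA, 1.499 for TAF15, 1.63 for EHBP1L1 and 2.17 for ZGPAT. With all 3 libraries they were 0.30, 0.10, 0.51 and 0.44 in the same order. What sets this library apart was not tested.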
